A study of Homo sapiens with 4 samples.

Results

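Cassette exons that lie between very long introns were examined in U87MG cells, a human cell line described by its depositors as a likely glioblastoma. An exon was taken when it was at least 28 and under 500 nt long and both introns of its skipped exon event were at least 20000 nt long, and each exon was counted once, through the event with the most counts. The rule drew on positions and read counts and on no splicing difference. It found 2517 exons in 1365 genes, out of 57729 distinct exons in 84930 skipped exon events, and the 53334 other exons of the same length range served for comparison. The cells received 2.5 µM of a decoy RNA oligonucleotide by lipofection. RBFOXi, which carries repeats of the motif bound by the splicing factors RBFOX1 and RBFOX2, was given to 2 cultures, and SCRM, a scrambled control oligonucleotide, to 2 others. The oligonucleotide of RBFOXi replicate 1 carried a Cy5 dye and that of the other 3 libraries is listed without one, so any contribution of the dye cannot be told apart from that of the replicate. The replicates were independent biological replicates of 1 cell line.

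Most human exons are short and are flanked by much longer introns, and the splicing machinery usually recognises them by pairing the splice sites across the exon. U1 snRNA base pairs with the 5′ splice site, the junction of exon and downstream intron, and U2AF binds the pyrimidine tract and the AG at the 3′ splice site. RBFOX proteins bind UGCAUG, and as a rule a site downstream of a cassette exon favours its inclusion while a site upstream favours skipping. Percent spliced in (PSI) is the share of transcripts that contain the exon, here from 0 to 1 and taken within a single event. The inclusion and skipping counts are first divided by the lengths over which each can be counted.

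The 5′ splice sites of CDH13 are shown because most of its exons given here lie in a row between very long introns. CDH13 encodes T-cadherin, a cadherin anchored to the membrane by a lipid, and it contributed 10 members, more than any other gene. The lines give the last 3 exon bases in lower case, the first 6 intron bases in capitals and the next 6 intron bases, on the plus strand of chromosome 16 in GRCh37.
CDH13 exon 2, chr16:82892076-82892090: actGTAAGCaatgtc
CDH13 exon 3, chr16:83065821-83065835: cagGTAACAcatctg
CDH13 exon 4, chr16:83159104-83159118: aagGTAAGTcagaca
CDH13 exon 5, chr16:83251100-83251114: caaGTGAGTacccct
CDH13 exon 6, chr16:83378609-83378623: cagGTATGTcacatt
CDH13 exon 7, chr16:83520258-83520272: gagGTGAGCtgaaaa
CDH13 exon 8, chr16:83636197-83636211: gagGTAAACccctgt
CDH13 exon 9, chr16:83704575-83704589: aaaGTAAGGgtgctt
CDH13 exon 10, chr16:83712064-83712078: cagGTGGGTgagtgg
CDH13 exon 11, chr16:83781853-83781867: gtgGTGAGTacttga
Exons 4, 5 and 11, 3 of the 10, carry GTAAGT or GTGAGT, the intron bases best matched to U1 snRNA. Over the last 3 exon and first 6 intron bases (CAG and then GTAAGT or GTGAGT) exon 2 matched the consensus at 5 of 9 positions, fewer than the other 9 exons.

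UGCAUG sites close to members are shown next, with TGCATG in capitals as the DNA letters of the motif. They were taken from exons that are described below by their values, and each run is 46 bases long.
RAB10, downstream intron, chr2:26321721-26321766, plus strand: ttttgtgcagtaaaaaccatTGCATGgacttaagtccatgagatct
GRB10, downstream intron, chr7:50823538-50823583, minus strand: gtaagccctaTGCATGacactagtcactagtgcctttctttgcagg
ARID1B, downstream intron, chr6:157454345-157454390, plus strand: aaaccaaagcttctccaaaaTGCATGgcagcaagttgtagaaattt
PTPRK, downstream intron, chr6:128540010-128540055, minus strand: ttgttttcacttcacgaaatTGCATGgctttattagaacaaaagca
SERGEF, upstream intron, chr11:17981304-17981349, minus strand: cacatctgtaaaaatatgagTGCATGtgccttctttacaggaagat
IMMP1L, upstream intron, chr11:31477965-31478010, minus strand: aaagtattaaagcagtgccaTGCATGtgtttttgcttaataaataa
In GRB10 the motif began 11 nt after the exon, and the first letters of the run are its 5′ splice site. In RAB10 it began 150 nt after the exon, in ARID1B 24 nt and in PTPRK 32 nt. In SERGEF it ended 141 nt before the exon, and in IMMP1L 52 nt before it.

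The introns set the members apart by construction, with medians of 42432 nt upstream and 36305 nt downstream against 2184 and 1949 nt for other exons. The exons themselves were of ordinary length. Their median was 116 nt against 119 nt, and 39.4% against 41.1% had a length divisible by 3. An intron here is the gap between the exons of an event, and in 1489 members that gap held at least 1 other exon of the table, so part of the length reflects the pairing of distant exons. The remaining 1028 members had no listed exon in either gap. In all, 882 members also occurred in another event with an intron below the threshold.

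Members more often carried a full consensus at the 5′ splice site. GTAAGT or GTGAGT followed 906 of 2517 members (36.0%) and 13214 of 53334 other exons (24.8%). The share rose across classes of the shorter flanking intron, from 20.8% under 500 nt through 25.4% at 1000 to 2000 nt and 32.9% at 10000 to 20000 nt to 34.9% at 20000 to 50000 nt and 41.2% at 50000 nt or more. Base composition changed along the same axis, since the median GC content of the 300 nt on either side was 36.3% for members and 43.3% for other exons. Within each of 5 classes of that GC content the members had the higher share, for instance 35.2% against 26.2% below 35% GC and 35.7% against 22.0% at 50% GC or more. The share was 37.8% in the 1028 members with no listed exon in the gaps and 36.4% against 25.1% among coding exons. These are shares over exons, several of which share a gene, and no test was attached to them. All 2517 members had AG before the exon, and 2493 had GT after it. The pyrimidine content of the 17 bases that end 1 base short of that AG had the same median, 76.5%, in members and other exons.

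Members lay near the start of genes. Among the 2229 members that belong to the principal transcript of their gene, 27.0% were exon 2, against 13.1% of other exons, and 47.3% against 25.2% were exon 2 or 3. The consensus share was 41.4% in members that were exon 2 and 35.7% in later members, against 30.4% and 24.9% in the same classes of other exons. In the annotation 2132 members (84.7%) held coding sequence, 233 (9.26%) lay in a 5′ UTR against 3.28% of other exons, 114 occurred in non-coding transcripts only, 6 lay in a 3′ UTR and 32 matched no annotated exon at both ends.

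Every member had UGCAUG in its downstream intron, against 24544 of 53334 other exons, and the median was 11 copies per downstream intron. That follows the length, as the motif occurred 0.315 times per 1000 nt of flanking intron in members and 0.298 times in other exons. Close to the exon the shares were nearer to each other: 227 members (9.02%) and 8.33% of other exons had it within 300 nt downstream, and 230 members (9.14%) and 7.98% within 300 nt upstream. The exact 95% binomial interval was 7.93 to 10.2% downstream, which contains the share of other exons, and 8.04 to 10.3% upstream, which lies just above it. On either side it was 17.3% (15.9 to 18.9%) against 15.6%. These intervals treat the exons as independent, although 604 of the 1365 genes held 2 or more members, so they are too narrow to establish an excess.

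SCRM replicate 1 stood apart on these exons. The members received 1277999 and 1406562 counts in RBFOXi replicates 1 and 2, 722277 in SCRM replicate 1 and 1623359 in SCRM replicate 2, while other exons received 78729597 to 90524664 in every library. Members thus made up 1.51%, 1.53%, 0.909% and 1.78% of the counts. Compared with SCRM replicate 2, the share of counts in SCRM replicate 1 fell steadily with intron length, from a ratio of 1.22 under 500 nt to 0.844 at 1000 to 2000 nt and 0.503 at 50000 nt or more. The 2 RBFOXi libraries kept a ratio between 0.984 and 1.02 in every class. The ratio also followed the position in the gene. It was 0.402 in the 1554 members in the first 50% of the exons of their transcript and 0.858 in the 675 later members. Among members it was 0.405 below 35% GC and 0.724 at 50% GC or more, and in each GC class it was lower than that of other exons. As a result 315 tested members had fewer than 50 counts in SCRM replicate 1, against 66 in SCRM replicate 2. The part this library plays in the differences below was not tested, and values without it are given for the members ranked by size of the difference or by p.

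**Figure D1:**
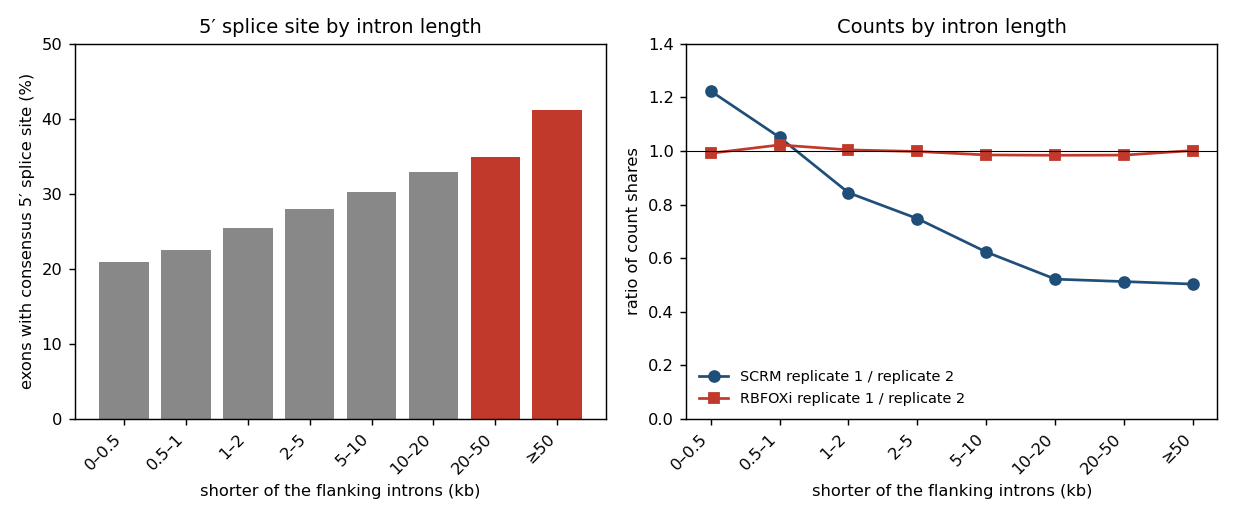
Left, percentage of exons whose downstream intron starts with GTAAGT or GTGAGT, by the shorter of the flanking introns in kb, with members in red and other exons in grey. Right, ratio of the count share of replicate 1 to that of replicate 2 in the same classes: the SCRM ratio falls from 1.22 to 0.503 while the RBFOXi ratio stays between 0.984 and 1.02.

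Most members were almost constantly included. All had at least 1 inclusion and 1 skipping count, but 1271 had fewer than 4 skipping counts over the 4 libraries. Only exons with 5 or more counts in each library, 20 or more on average and 4 or more counts for both forms were tested, and 1078 members in 722 genes met this. Their SCRM PSI had a median of 0.976 with quartiles of 0.912 and 0.993, and other tested exons had a median of 0.981. Tested members had a median of 302 counts per library and other tested exons 537. The 4 skipping counts required limit how high PSI can be at a given depth. The part of depth in the PSI comparisons of tested exons was not tested. PSI exceeded 0.95 in all 4 libraries in 533 tested members (49.4%, against 55.7% of other tested exons), lay between 0.1 and 0.9 in all 4 in 120 (11.1% against 11.5%) and stayed under 0.1 in all 4 in 40 (3.71% against 6.71%). The consensus 5′ splice site followed 39.4% of the first of these classes, 30.8% of the second and 27.5% of the third, and 26.1%, 18.6% and 17.1% of the same classes of other exons. Intermediate PSI was found in 8.48% of the 896 tested coding members, 21.3% of the 122 in a 5′ UTR and 37.2% of the 43 in non-coding transcripts only. For other tested exons in a 5′ UTR the value was 36.1%, and their median SCRM PSI was 0.390 where that of the members was 0.924.

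The 10 CDH13 exons, exons 2 to 11, showed how uniform inclusion could be. The gaps on either side ranged from 31717 to 325783 nt, and the counts from 8294 to 29593 per exon over the 4 libraries. The longest gap, before exon 9, held exons 7 and 8. Exons 9 and 10 also occurred in events with an intron of 7235 nt. The lowest PSI among the 40 values was 0.986 and the highest 1. Exon 2, with the 5 of 9 match printed above, had PSI 0.986 and 0.986 in the RBFOXi libraries and 0.992 and 0.990 in the SCRM libraries, the lowest group means of the 10 exons, with 41, 44, 9 and 40 skipping counts. Exon 4, which carries GTAAGT, had 0.999 and 0.998 against 0.999 and 0.998. Of 69 genes with at least 5 members, 10 had at least 8. SND1, a nuclease of the RNA-induced silencing complex, had 8 members with PSI from 0.997 to 1, and MAD1L1, a spindle checkpoint protein, 8 with PSI from 0.971 to 1. ADK, which encodes adenosine kinase, had 8 with PSI from 0.949 to 1. The longest shorter introns of all belonged to PRKG1, GPC6, PCDH9, C10orf11 and PPARGC1A. In GPC6, a glypican, exon 2 lies between introns of 317646 and 284732 nt. The exon of PRKG1, a cGMP-dependent kinase, lies between 314392 and 336748 nt and had PSI 1, 1, 1 and 0.994. The exons of PCDH9 and PPARGC1A had at most 4 counts in any library and give no usable PSI. C10orf11 had PSI 0.940 and 0.951 against 0.988 and 0.959.

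The best covered members were also nearly constant. LOXL2 exon 2, of a lysyl oxidase that crosslinks collagen, rounded to PSI 1 in all 4 libraries at 19308 to 37927 counts. APP, the amyloid precursor protein, contributed exon 2 at 0.997 and 0.998 against 0.996 and 0.997, and exon 6 at 1 in every library after rounding. CAPZB, which caps actin filaments, had exon 2 at 0.998 in every library, and CORO1C, a coronin, had exon 2 at 0.994 and 0.991 against 0.991 and 0.991.

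Some members were mostly skipped or were included at intermediate levels. The exons named in this paragraph were chosen after their values were seen, from the best covered of their class. MAPKAP1, a subunit of the mTORC2 kinase complex, had a 108 nt exon at PSI 0.538 and 0.536 with RBFOXi and 0.537 and 0.561 with SCRM. RUNX1, a transcription factor, had a 192 nt exon at 0.616 and 0.664 against 0.647 and 0.717, and AGAP1, an ARF GTPase activator, a 159 nt exon at 0.281 and 0.257 against 0.216 and 0.308. For these exons the groups overlapped. RTN3 and RTN4, 2 reticulons that shape the endoplasmic reticulum, each had a member of 57 nt that was mostly skipped. The RTN4 exon was at 0.046 and 0.043 with RBFOXi and 0.051 and 0.048 with SCRM. The RTN3 exon was at 0.007 and 0.003 against 0.007 and 0.006. A 497 nt exon of CAPZB was close to 0 in all libraries, although its neighbour above was close to 1.

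GRB10 and ARID1B mixed nearly constant exons with others, while the events of IMMP1L gave low or intermediate values only. These genes were likewise chosen after their values were seen. GRB10 encodes a signalling adaptor of the insulin receptor and had 6 members. The 2 farthest downstream and the exon before them had PSI between 0.972 and 1, and the other 3 lay between 0.337 and 0.729. The exon with UGCAUG 11 nt downstream was at 0.565 and 0.574 with RBFOXi and 0.530 and 0.641 with SCRM, so the RBFOXi libraries lay between the SCRM libraries. ARID1B, a subunit of SWI/SNF chromatin remodelling complexes, had 5 members between 0.960 and 1. A 39 nt exon of ARID1B was at 0.040 and 0.086 against 0.044 and 0.055, and a 42 nt exon at 0.245 and 0.339 against 0.389 and 0.336. The ARID1B exon with UGCAUG 24 nt downstream had PSI 0.983, 1, 1 and 1 and too few skipping counts to be tested. The same held for the PTPRK exon with its motif at 32 nt, of a receptor tyrosine phosphatase, at 1, 0.991, 1 and 1. IMMP1L, a subunit of the mitochondrial inner membrane peptidase, had 4 members at PSI from 0.004 to 0.404. All 4 had the same skipping counts, 200 and 139 with RBFOXi and 268 and 189 with SCRM, from 1 shared junction. Each had 3 other listed exons in its gaps, so these values hold for that event and not for all transcripts of the gene. The IMMP1L exon with UGCAUG 52 nt upstream was at 0.188 and 0.217 with RBFOXi and at 0.124 and 0.156 with SCRM. It was higher in both RBFOXi libraries at an unadjusted p of 0.105 in limma.

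**Figure D2:**
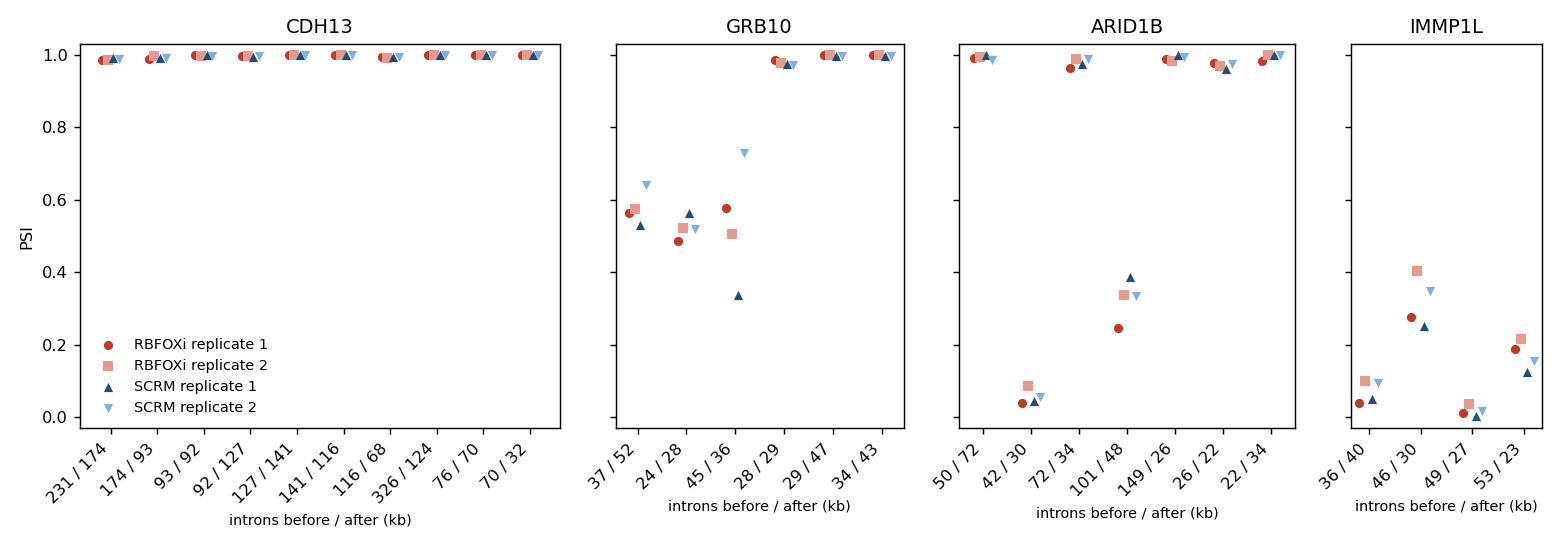
PSI of every member of CDH13, GRB10, ARID1B and IMMP1L in each of the 4 libraries, in transcript order, with the upstream and downstream intron of each exon's event in kb below it. CDH13 stays between 0.986 and 1, GRB10 and ARID1B mix constant and intermediate exons, and IMMP1L lies between 0.004 and 0.404.

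RBFOXi was then compared with SCRM. No member was called changed. The limma fit called 66 of 39615 tested events (0.167%) when both an adjusted p under 0.05 and a delta PSI of 0.1 or more in either direction were required, and of these 53 were other exons counted once. At that share 1.80 calls would fall among 1078 members, so a count of 0 lies near the background. The smallest adjusted p of a member was 0.851 (limma, Benjamini-Hochberg). Unadjusted p was under 0.05 in 33 members (3.06%, against 3.32% of all tested events), of which 11 were lower with RBFOXi (all events 1.47%) and 22 higher (all events 1.85%). A quasi-binomial test of the counts also called 0 members and put 43 under an unadjusted p of 0.05. Precision was limited: the 95% interval of a log2 odds difference reached a median of 2.22 to either side in tested members and 1.92 in other tested exons.

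The members as a whole hardly moved. The median delta PSI, RBFOXi minus SCRM, was -0.0014 in tested members and -0.00013 in other tested exons, and 598 of 1078 members were lower. The central 90% of members ran from -0.0757 to 0.0620. In the log2 odds the medians were 0.02 for members, 0.05 for other exons and 0.06 for all tested events. The sign of the member median was not stable, as it was -0.13 without SCRM replicate 1, 0.33 without SCRM replicate 2, -0.12 with a pseudocount of 0.1 and 0.12 with a pseudocount of 1. The 2 RBFOXi libraries both lay below the 2 SCRM libraries in 220 members (20.4%, all events 16.5%) and both above in 137 (12.7%, all events 14.3%). Replicates of 1 group differed by a median of 0.0144 PSI for RBFOXi and 0.0169 for SCRM. The median absolute delta PSI was 0.0114, but it compares means of 2 libraries, which vary less than single libraries.

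**Figure D3:**
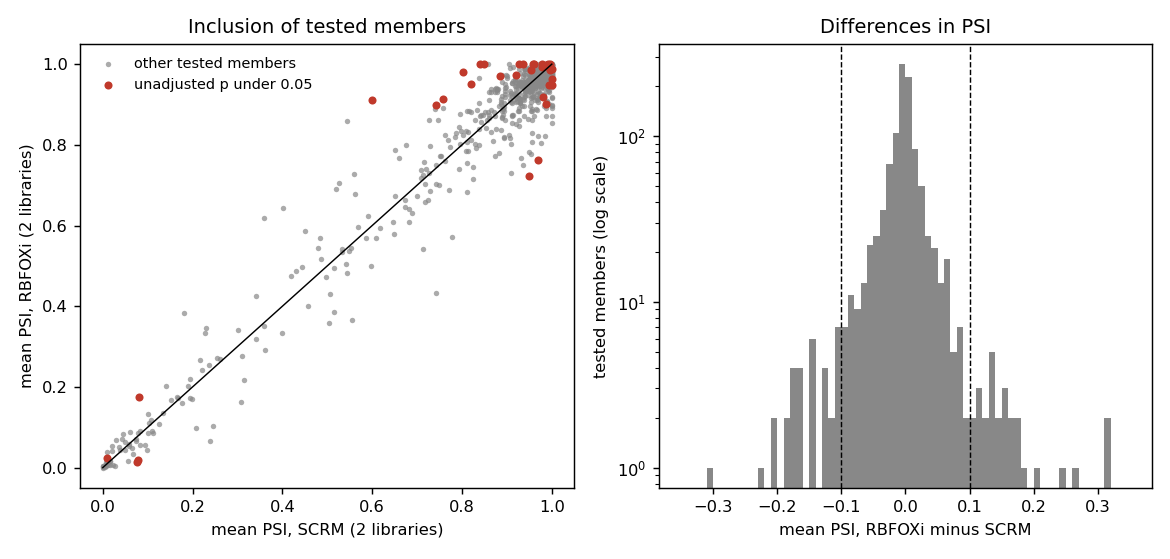
Left, mean PSI of the 1078 tested members with RBFOXi against SCRM (2 libraries each), with the diagonal and the 33 members at an unadjusted p under 0.05 in red. Right, histogram of the PSI differences on a log count axis with dashed lines at -0.1 and 0.1, beyond which 33 members are lower and 27 higher.

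Of 955 tested members with at least 20 counts in every library, 7 were lower with RBFOXi by at least 0.1 PSI with groups that did not overlap (0.733%, against 1.04% of all tested events with such counts), and 8 were higher (0.838% against 1.12%). Among the 7 was an exon of LCMT1, which methylates the catalytic subunit of protein phosphatase 2A. Its 77 nt exon 4 was at 0.831 and 0.695 with RBFOXi and at 0.940 and 1 with SCRM, a delta PSI of -0.207 (log2 odds -3.02, SE 1.20, unadjusted p = 0.0138 in limma) that was -0.139 without RBFOXi replicate 2. GLI2, a transcription factor of the Hedgehog pathway, had exon 2 at 0.794 and 0.851 against 1 and 0.940. In GLI2 the skipping counts were 6, 4, 0 and 2. Lower values were also found in SDCCAG8 at 0.796 and 0.635 against 0.846 and 0.805, ULK4 at 0.838 and 0.953 against 1 and 1, and BNC2 at 0.763 and 0.780 against 0.891 and 0.855. GLI2 and these 3 exons had unadjusted p of 0.193 to 0.376 in limma. The delta PSI of SDCCAG8 went from -0.110 to -0.0293 without RBFOXi replicate 2, and that of ULK4 from -0.105 to -0.0471 without RBFOXi replicate 1. Without SCRM replicate 1 the 5 values ran from -0.237 in LCMT1 to -0.0839 in BNC2. SDCCAG8 is a centrosomal protein, ULK4 a pseudokinase and BNC2 a zinc finger protein.

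Among the rises, NEK11, a kinase of the DNA damage response, had exon 4 at 1 and 0.959 with RBFOXi and at 0.771 and 0.835 with SCRM (log2 odds 2.76, SE 1.30, unadjusted p = 0.0375 in limma). METTL8, a methyltransferase of mitochondrial tRNA, had exon 2 at 0.931 and 0.897 against 0.693 and 0.823. HDAC4, a class IIa histone deacetylase, had exon 3 at 1 and 1 against 0.738 and 0.960, and SLC2A13, a myo-inositol transporter, exon 4 at 1 and 1 against 0.732 and 0.985. In HDAC4 and SLC2A13 the rise rested on SCRM replicate 1, with 21 and 27 counts there. Without that library the delta PSI fell from 0.151 to 0.0399 in HDAC4 and from 0.142 to 0.0150 in SLC2A13. In METTL8 it went from 0.156 to 0.091, and in NEK11 from 0.176 to 0.145. STAU2, which binds double-stranded RNA, had an exon at 0.791 and 0.663 against 0.603 and 0.515, with a delta PSI of 0.168, or 0.103 without RBFOXi replicate 1. SERGEF, a guanine nucleotide exchange factor, had exon 9 at 0.649 and 0.523 against 0.450 and 0.449, with log2 odds 0.79 (SE 0.51, unadjusted p = 0.123 in limma). Its delta PSI of 0.137 was 0.0732 without RBFOXi replicate 1. Without SCRM replicate 1 the delta PSI of STAU2 was 0.212 and that of SERGEF 0.137. SERGEF is the member whose upstream intron was printed above with UGCAUG 141 nt before the exon.

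**Figure D4:**
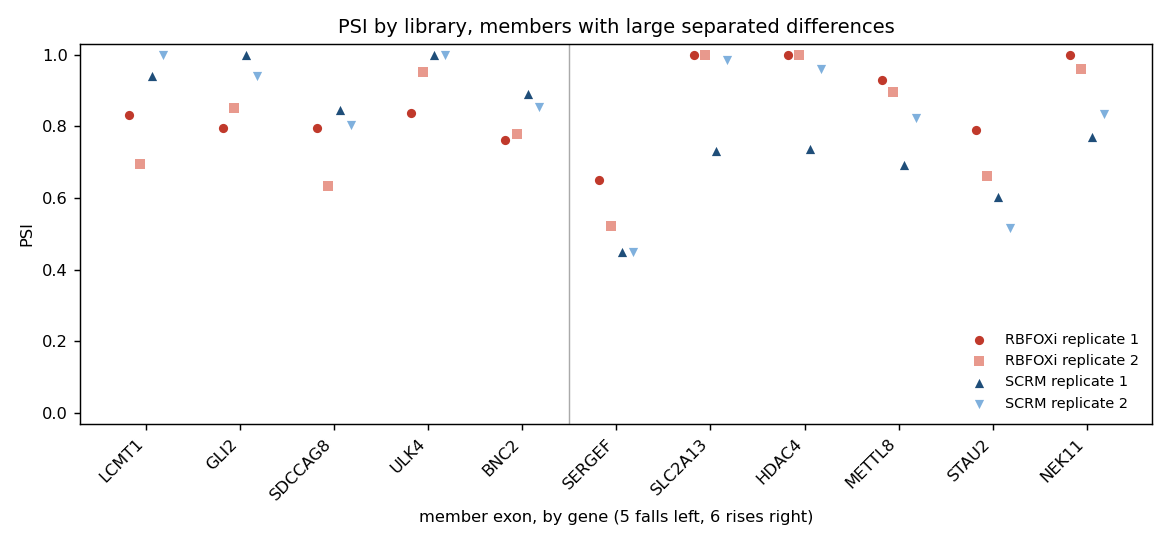
PSI in each library for 5 members with large falls (left of the line) and the 6 with the largest rises (right) among those with at least 20 counts in every library and groups that do not overlap. In SLC2A13 and HDAC4 SCRM replicate 1 lies far below SCRM replicate 2, at 0.732 against 0.985 and at 0.738 against 0.960.

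Ranked by p instead, the leading members were TPD52, FBXW11, RAB10, NOVA1, LCMT1 and ZNF438. The exon listed under TPD52, which the GENCODE annotation places in a different gene without a symbol, was rarely used. It was at PSI 0.019 and 0.026 with RBFOXi and 0.003 and 0.017 with SCRM, and had an unadjusted p of 0.0040 in limma. With the replicate number as a block its adjusted p was 0.0474, at a delta PSI of 0.0128 that did not reach the size required for a call. FBXW11, an F-box protein of a ubiquitin ligase, had exon 2 at 0.018 and 0.008 against 0.110 and 0.041, with 10 counts in SCRM replicate 1. RAB10, a GTPase of vesicle traffic, had exon 2 at 0.997 and 0.999 against 0.982 and 0.994. This is the RAB10 exon followed by UGCAUG at 150 nt, and it was higher with RBFOXi by 0.0104 PSI. Without SCRM replicate 1 the delta PSI of TPD52 was 0.0060, that of FBXW11 went from -0.0624 to -0.0280 and that of RAB10 was 0.0044. ZNF438 exon 2, in a 5′ UTR, was at 0.880 and 0.942 against 0.655 and 0.543, at 10 to 32 counts per library, a delta PSI of 0.312, or 0.368 without SCRM replicate 1.

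NOVA1 is a splicing factor of neurons. Its alternative exon of 102 nt, absent from the principal transcript, is shown in capitals with its flanking intron bases (chr14:27018874-27019007, minus strand), because it belongs to the RNA-binding factor among these 6 genes.
NOVA1: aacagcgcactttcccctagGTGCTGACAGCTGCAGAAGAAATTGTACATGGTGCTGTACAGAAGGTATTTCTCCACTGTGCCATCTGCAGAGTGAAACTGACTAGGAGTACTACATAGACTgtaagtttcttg
Its PSI was 0.120 and 0.229 with RBFOXi and 0.062 and 0.098 with SCRM, at 172 to 220 counts. The groups did not overlap, but RBFOXi replicate 2 was far above replicate 1. The log2 odds difference was 1.24 (SE 0.48, 95% interval 0.28 to 2.19, unadjusted p = 0.0115 in limma) and the delta PSI 0.0946, or 0.0767 without SCRM replicate 1 and 0.0401 without RBFOXi replicate 2. The nearest downstream UGCAUG began 4465 nt away.

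Of the 22 members higher at an unadjusted p under 0.05, 18 had SCRM replicate 1 as the lowest library. Of the 11 lower at that p, 3 had SCRM replicate 1 as the highest library. All 33 members under that p kept the sign of their delta PSI without that library. Choosing them by p in the same libraries makes that outcome likely beforehand. A delta PSI of 0.1 or more in size was seen in 9 of the 33, and 12 had a mean PSI over 0.95 in both groups.

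Among other exons, those with UGCAUG within 300 nt downstream had a lower median log2 odds difference than those without it. The median was -0.13 over 2199 tested exons with it and 0.06 over the 24094 exons without it, a gap of -0.20. In members the medians were 0.04 over 98 exons and 0.01 over 980, a gap of 0.02. Without SCRM replicate 2 the medians of other exons were -0.00042 with the motif and 0.22 without it. With all libraries the median delta PSI of the 2199 exons was -0.0014. When each library was left out in turn, the gap ranged from -0.22 to -0.18 in other exons and from -0.05 to 0.11 in members. By the shorter flanking intron the gap was -0.29 under 1000 nt (914 exons with the motif), -0.13 at 1000 to 5000 nt (1009 exons), -0.09 at 5000 to 20000 nt (276 exons) and 0.02 in members. Within each of the 3 shorter classes the gap stayed negative whichever library was left out. In members it was negative only without SCRM replicate 2, and the difference between the classes was not tested.

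For single exons, unadjusted p was under 0.05 in 8.53% of exons with the motif and introns under 1000 nt, where 13 were called, in 6.84% at 1000 to 5000 nt, where 16 were called, in 4.35% at 5000 to 20000 nt, where 2 were called, and in 2 of 98 members (2.04%), where none was called. In exons of the same classes without the motif the shares were 3.23%, 2.67%, 2.67% and 3.16%. Of those exons without the motif, 8 of 11140, 11 of 10262, 3 of 2692 and 0 of 980 were called, beside 0.167% of all tested events. A share of 2 in 98 is too imprecise to place the members with exons that have the motif or with those that lack it. At an intermediate PSI of 0.1 to 0.9 the gap was -0.26, -0.30, -0.04 and -0.03 in the same classes, the last over 10 members with the motif. In members the 98 exons with the motif included 19 below both SCRM libraries (19.4%, all tested members 20.4%) and 13 above both (13.3%, all tested members 12.7%). Members with UGCAUG within 300 nt upstream had a median log2 odds difference of -0.08 over 104 exons, against 0.05 over 2108 other exons. Members whose nearest upstream motif lay at 300 to 1000 or 1000 to 2000 nt had similar medians, -0.07 over 191 and -0.07 over 188. At 2000 to 5000 nt and beyond, the medians were 0.01 over 326 and 0.13 over 269.

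**Figure D5:**
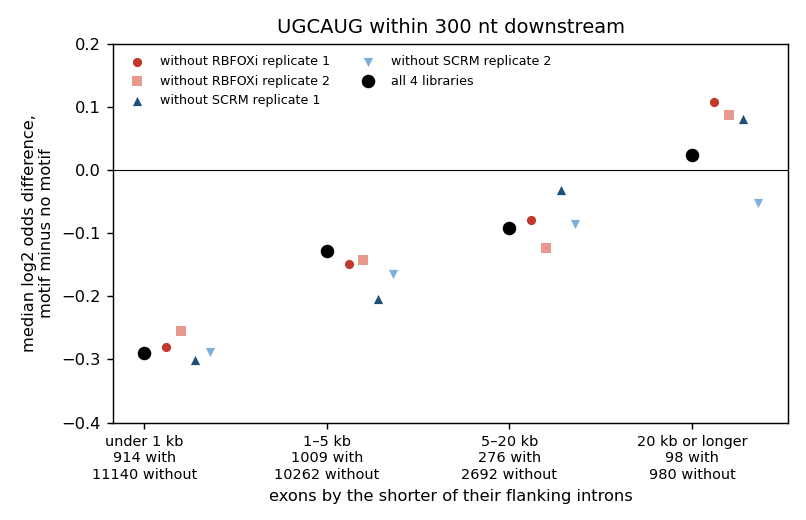
Median log2 odds difference (RBFOXi minus SCRM) of exons with UGCAUG within 300 nt downstream minus that of exons without it, by the shorter flanking intron, with all 4 libraries (black) and with each library left out. The values are -0.29, -0.13, -0.09 and 0.02 from the shortest to the longest class, where the members are.

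By size of the difference, the members with the motif within 300 nt on either side were led by FAM210A, LINC00922, SERGEF, FHOD3, APBB2 and PPAP2A. FAM210A, a mitochondrial membrane protein, had an exon with the motif 100 nt downstream at PSI 0.598 and 0.782 with RBFOXi and 0.367 and 0.670 with SCRM. LINC00922, a non-coding transcript, had one at 0.692 and 0.883 against 0.519 and 0.781, and in both the groups overlapped. Without SCRM replicate 1 their delta PSI dropped from 0.172 to 0.0201 and from 0.138 to 0.0064. FHOD3, a formin that assembles actin filaments, had exon 3 at 1 and 0.983 against 0.824 and 0.988, where the delta PSI dropped from 0.0851 to 0.0031 without SCRM replicate 1. APBB2 binds the amyloid precursor protein and had a 5′ UTR exon with the motif 155 nt downstream and 143 nt upstream, at 0.642 and 0.514 against 0.687 and 0.612, a delta PSI of -0.0718, or -0.0077 without RBFOXi replicate 2. PPAP2A, a lipid phosphatase, had an exon at 0.341 and 0.327 against 0.316 and 0.484, with a delta PSI of -0.0659 that became 0.0182 without SCRM replicate 2. None of the 6 had an unadjusted p under 0.05.

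Gene families were read from lists of symbols. No member of any list was called, and unadjusted p was under 0.05 in 0 to 3 members per list. Over all tested events the shares were 0.167% and 3.32%. With 20 to 67 tested members per list, such counts lie near that background and are not read as results about a family. Transcription and chromatin factors held 158 members in 80 genes, of which 67 were tested, 14 were intermediate and 3 (ZNF438, HDAC4 and MED27) had an unadjusted p under 0.05. Their best covered members were MEIS2 exon 8, of a homeodomain factor, at 0.996 and 0.998 against 0.995 and 1, and SMAD2 exon 2, of a TGF-β signal transducer, at 0.996 and 0.999 against 1 and 1. Kinases, phosphatases and phosphodiesterases held 132 members, of which 49 were tested and 2 (PTPN2 and NEK11) had such a p. PPP2R5C, a regulatory subunit of protein phosphatase 2A, was at 0.998 and 0.996 against 0.998 and 0.997, and exon 5 of MAPKAP1 at 0.994 and 0.998 against 0.994 and 0.993. Regulators of small GTPases held 90 members, 45 tested, with TBC1D5 alone under that p. RASA3 exon 2 was at 0.955 and 0.9503 against 0.926 and 0.958, and ARHGAP22 exon 2 at 0.953 and 0.964 against 0.936 and 0.976.

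Cell adhesion and axon guidance genes held 72 members, 26 tested, with ITGB3BP alone under that p. CDH13 gave their best covered exons. Cytoskeletal genes held 65 members, 20 tested, with ENAH alone. ENAH, which promotes actin filament growth, had exon 2 at 1 and 1 against 0.925 and 0.996, with 112 counts in SCRM replicate 1 and a delta PSI of 0.0394 that was 0.0038 without that library. The best covered were MICAL2 exon 3 at 0.998 and 0.998 against 1 and 0.996 and MAP4 exon 2 at 0.999 and 0.994 against 1 and 0.992. RNA-binding and processing factors held 62 members, 23 tested, with NOVA1 alone. RALY exon 2 was at 0.946 and 0.9498 against 0.939 and 0.948, and EIF3H exon 2 at 0.995 and 0.992 against 0.995 and 0.997. Ion channels and transporters held 66 members, 22 tested, with none under that p. ATP1B3 exon 2 was at 0.999 and 0.999 against 1 and 0.999, and ANO10 exon 12 at 0.959 and 0.956 against 0.944 and 0.951. The median delta PSI of the tested members of a list ranged from -0.0046 in RNA-binding factors to 0.0012 in GTPase regulators.

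Values on either side of the intron threshold are given as a description. With a shorter intron of 18000 to 20000 nt, 110 exons were tested with a median SCRM PSI of 0.947 and a median delta PSI of -0.0023, and 2 had an unadjusted p under 0.05. At 20000 to 22000 nt, 160 were tested with 0.972 and -0.0011, and 7 had such a p. The consensus 5′ splice site followed 36.1% of the first and 33.8% of the second.

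Marker genes were read through their skipped exon counts, which exist only where the gene has a listed event. A marker without a listed event is therefore not shown to be unexpressed, and these counts cannot establish the cell type. VIM, CD44, TNC and FN1 had 189745 to 1834284 counts in every library, SPP1 15362 to 21162 and NES 179 to 432, while GFAP and OLIG2 had no listed event. Of the epithelial markers KRT8 had 306 to 480 counts and EPCAM, KRT18 and CDH1 no listed event, and the same was true of the blood markers PTPRC, CD3E and LYZ.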

How the data were processed

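Per the study's methods, paired-end reads were aligned uniquely to hg19 with STAR (version 2.4.2a per the labels) and events were counted by rMATS with UCSC known genes. The deposited table of skipped exon events gives, for each library, inclusion and skipping counts as made by the authors, with the length over which each form was counted. The counts include reads inside the exon as well as junction reads. The authors' own fold changes, p-values and inclusion levels were not used. Other event types were not analysed here.

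PSI was (inclusion count / its length) over the sum of both forms. The log2 odds of the counts with a pseudocount of 0.5 were compared with limma (version 3.58.1, R 4.3.3), with the variance modelled as a trend on each event's information, over all 39615 events that passed the filter, with Benjamini-Hochberg adjustment. A call required an adjusted p under 0.05 together with a PSI difference of 0.1 or more. Libraries held 114415530 to 136097319 counts over all events, in which events of 1 exon repeat reads. The fit was tested on simulated counts. Exon ends, GENCODE 44 annotation and sequences came from GRCh37, the sequence of hg19, with AG before all members. The motif UGCAUG was searched on the transcribed sense strand of both introns.

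Named exons were those called, the 6 largest falls and rises among tested members with at least 20 counts per library and groups that did not overlap, the 6 smallest p, the 5 longest shorter introns, the 5 highest counts, the 2 best covered tested members of each gene list and the 6 largest differences with the motif within 300 nt. An exon among the falls and a marker gene are not reported here. Others are said to be chosen after their values were seen. The members and lists were chosen with earlier results of these data known. Same-numbered replicates are not paired by the labels.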

Additional observations from a re-analysis of the deposited data

How the results depend on the processing

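No member was called in any of the 19 alternative settings, which called 23 to 120 events in all. The number of members with an unadjusted p under 0.05, 33 as reported, moved with the filter and the exons taken: 19 with a pseudocount of 0.1, 82 with at least 1 count in every library (2402 tested), 73 with introns of 10000 nt or longer (2596 tested) and 7 with 50000 nt or longer (195 tested). Leaving out 1 library gave 16 (without RBFOXi replicate 2) to 69 (without SCRM replicate 2). A fit with the replicate number as a replicate block put 49 members under that p and called 0, with 1 (TPD52) at an adjusted p of 0.0474. Across the 39615 tested events, the log2 odds difference between replicates 1 and 2 of RBFOXi correlated at 0.0944 with that of SCRM. The number is therefore not treated as pairing the libraries. The median delta PSI, -0.0014, ranged from -0.0028 without SCRM replicate 1 to -0.00055 without RBFOXi replicate 2 and was -0.0021 with introns of 50000 nt or longer. The share of members with UGCAUG downstream was 5.32% within 150 nt, 14.8% within 500 nt and 10.6% with introns of 50000 nt or longer. The quasi-binomial test, centred log2 odds and leaving out members with a shorter intron elsewhere were chosen after seeing the data. A negative binomial count test was planned but not run. Few skipping counts limit most members.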
